A study of Homo sapiens with 6 samples.

Results

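The genes described here are 10 components of the Notch pathway, the receptors NOTCH1, NOTCH2 and NOTCH3, the ligands JAG1, JAG2 and DLL1, the nuclear partners RBPJ and MAML1, and the targets HES1 and HEY1. They were taken by symbol from a table of 30345 genes measured by polysome sequencing, and all 10 had a row. OSRC-2, written OS-RC-2 in the labels, is a line derived from clear cell renal cell carcinoma (ccRCC) that lacks functional VHL. One group of 3 libraries came from cells given 2 µM PT2399 for 72 h, and the other group of 3 from cells given vehicle for 72 h, with a separate biological replicate behind each library. The compound PT2399 inhibits HIF2, a hypoxia-inducible transcription factor that builds up in cells without VHL. Both groups are the same unmodified line, and RNA was taken from all sucrose gradient fractions heavier than the monosome peak, so the values describe RNA that sedimented with several ribosomes. The value used for each gene is the deposited mean normalized count over all 6 libraries, in which PT2399 and vehicle cells are averaged together. It gives the level of a gene's RNA in these heavy fractions, not its total RNA, and cannot show how PT2399 cells differed from vehicle cells. No difference between the treatments was analysed here, and no spread between libraries stands beside a level.

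Notch receptors are single-pass membrane proteins that are activated by ligands on a neighbouring cell. Binding of a Jagged or Delta-like ligand exposes the receptor to ADAM metalloproteases and then to gamma-secretase, which frees the intracellular domain. That domain enters the nucleus, joins the DNA-binding protein RBPJ and a Mastermind coactivator such as MAML1, and turns on genes of the HES and HEY families of repressors. In the kidney, Notch signalling helps to pattern the nephron during development.

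Of the 10 Notch genes, NOTCH2 and JAG1 had the highest means, and NOTCH3 and DLL1, at percentiles of 31.2 and 6.29 among all genes, were the 2 with a mean under 10. Per kilobase (kb) of the longest annotated transcript HES1 stood closer to them, at 2283 against 4375 for NOTCH2, a ratio of 1.92. With the median length of the annotated transcripts, NOTCH2 stood at 30.3 times and JAG1 at 13.6 times the level of HES1. The closeness therefore depended on the length used. NOTCH2 and JAG1 made up 85.2% of the summed means of the 10 genes, and the 10 genes together made up 0.203% of the summed means of all genes. A total of 8 genes reached a mean of 10 normalized counts, against 54.4% of all genes (16495), and 2 did not. The median percentile of the 10 genes among all genes was 87.6, and the same 8 genes lay above the median gene, which had a mean of 18.0.

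**Figure D1:**
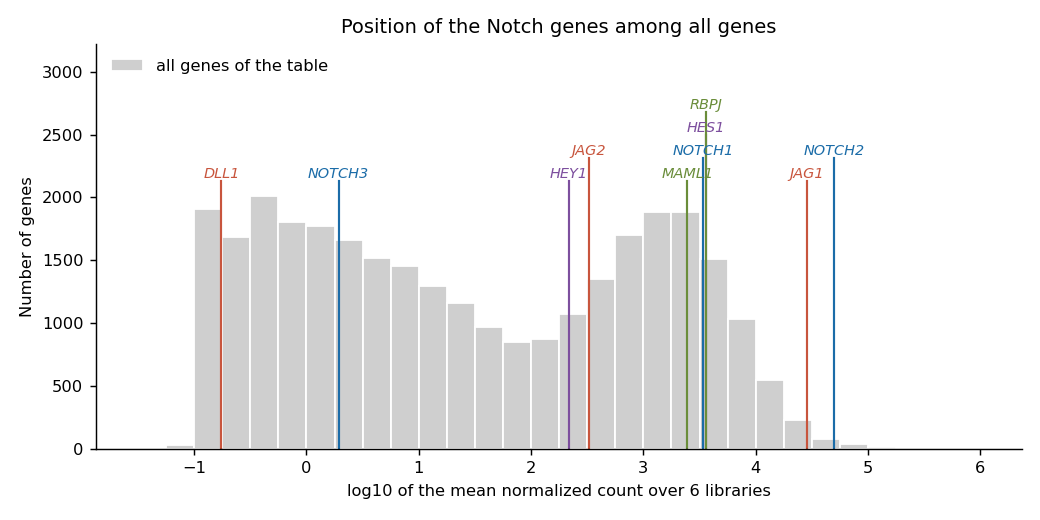
Number of genes (y axis) by the log10 of the mean normalized count over 6 libraries (x axis), in grey for all 30345 genes, with a coloured line at each Notch gene. NOTCH2 and JAG1 stand in the upper tail, 6 genes lie between means of 217 and 3639, and NOTCH3 and DLL1 lie at 1.93 and 0.175.

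Among the receptors, NOTCH2 dominated. Its mean was 49985 normalized counts (95% Poisson interval 49806 to 50164), the 63rd highest of all genes. The interval treats the normalized total over 6 libraries as a count and covers counting error only, without the spread between cultures. NOTCH2 (ENSG00000134250) is a protein-coding gene on chromosome 1, between 119911553 and 120069662 (RefSeq, GRCh38.p14). NOTCH1, the receptor best known from T-cell leukaemia, had a mean of 3378 (interval 3332 to 3425). It is ENSG00000148400, on chromosome 9 between 136494433 and 136546048. NOTCH3, which is typical of vascular smooth muscle and pericytes, had a mean of 1.93 (interval 0.985 to 3.41), or 11.6 normalized reads over all 6 libraries. It is ENSG00000074181, on chromosome 19 between 15159038 and 15200995. Counts rise with transcript length, so levels of different genes were compared per kb of the longest annotated transcript. On that scale the level of NOTCH2 was 4375 per kb and that of NOTCH1 was 343 per kb, a ratio of 12.8, or 199 with the median length of the annotated transcripts. NOTCH3 was at 0.223 per kb.

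The NOTCH2 value carries an uncertainty from near-identical genes. The NOTCH2NL genes on chromosome 1 arose from partial duplication of NOTCH2 and share its first exons. The table held a single NOTCH2NL row with a mean of 6484, or 13.0% of the NOTCH2 mean, and how reads were divided between the rows was not tested. Summed, both rows came to 56469. A sum can only raise the NOTCH2 value, so it does not show how many NOTCH2NL reads entered the NOTCH2 row.

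Among the ligands, JAG1 had the highest level. JAG1 (ENSG00000101384; chromosome 20, 10637684 to 10673999) had a mean of 28607 normalized counts (interval 28471 to 28742), the 158th highest of all genes. Its level of 4816 per kb was the highest of the 10 genes. JAG2 (ENSG00000184916; chromosome 14, 105140995 to 105168776), the second Jagged ligand, had a mean of 328 (interval 314 to 343) and a level of 56.8 per kb. The JAG1 level per kb was 84.8 times that of JAG2, and 263 times with the median transcript length. DLL1 (ENSG00000275555; chromosome 6, 170282206 to 170291078), a Delta-like ligand, had a mean of 0.175 (interval 0.00519 to 0.944), which equals 1.05 normalized reads over all 6 libraries. At this depth DLL1 RNA was barely detectable in the polysome fractions. The DLL1 locus overlaps FAM120B, a gene with a mean of 2389, at its higher coordinates. The paper names a stranded library kit, but the sources used here do not say if reads were counted by strand. This signal of about 1 read therefore cannot be placed with certainty. Summed per kb, the 3 receptors came to 4718 and the 3 ligands to 4873, a ratio of 0.968. The direction of this ratio depended on the length used, since with the median transcript length, an alternative chosen after seeing the data, it was 2.23 and the receptors stood above the ligands.

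Both nuclear partners passed the limit of 10 normalized counts, which 54.4% of all genes reached. RBPJ (ENSG00000168214; chromosome 4, 26105449 to 26435131), the DNA-binding protein of the pathway, had a mean of 3639 (interval 3591 to 3688). MAML1 (ENSG00000161021; chromosome 5, 179732822 to 179777283), the coactivator, had a mean of 2453 (interval 2414 to 2493). Per kb they stood at 632 and 427, and the ratio of RBPJ to MAML1 was 1.48. It was 3.01 with coding length and 0.790 with the median transcript length, so the order of the pair was not settled. A processed copy of RBPJ, RBPJP2, had a mean of only 0.140.

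Of the targets HES1 and HEY1, HES1 had the higher level. HES1 (ENSG00000114315; chromosome 3, 194136148 to 194138732), a basic helix-loop-helix repressor, had a mean of 3595 (interval 3547 to 3643). Because its longest transcript is short, at 1575 bases, its level of 2283 per kb was the third highest of the 10 genes. HEY1 (ENSG00000164683; chromosome 8, 79764010 to 79767767), a related repressor, had a mean of 217 (interval 205 to 229) and a level of 55.9 per kb. The level of HES1 per kb was 40.8 times that of HEY1, but 18.2 times with coding length, 23.1 times with the Ensembl canonical transcript and 29.5 times with the median transcript length.

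From the highest level per kb to the lowest, the order was JAG1, NOTCH2, HES1, RBPJ, MAML1, NOTCH1, JAG2, HEY1, NOTCH3 and DLL1. JAG2, with an interval of 54.3 to 59.4 per kb, and HEY1, with 52.9 to 59.1, did not differ beyond counting error. The intervals of NOTCH3 (0.113 to 0.392) and DLL1 (0.00137 to 0.250) overlapped as well. The other neighbours were separated by more than counting error, but with no spread between libraries their order was not tested. It also depends on which transcript each gene uses. HEY1 stood above JAG2 with coding length, at 235 against 88.3 per kb, and with the canonical transcript, at 98.7 against 56.8. With the median length of the annotated transcripts, NOTCH2 stood above JAG1 and MAML1 above RBPJ.

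**Figure D2:**
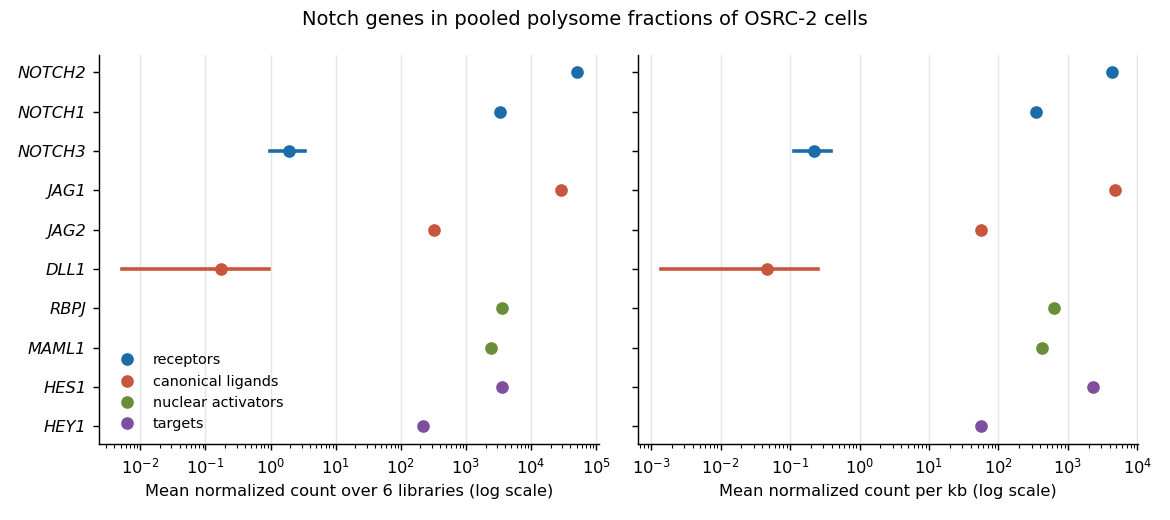
Mean normalized count over 6 libraries (left, log scale) and the same per kb of longest transcript (right, log scale) for each of the 10 Notch genes, coloured by role. Points are the deposited means and bars are 95% Poisson intervals, which are narrower than the points except for NOTCH3 and DLL1. Levels per kb run from 0.0464 for DLL1 to 4816 for JAG1.

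The wider pathway was examined with a list of 61 genes that includes these 10. Of the other 51 genes, 49 had a row, of which 41 reached a mean of 10 normalized counts and 8 did not. Of all genes, 54.4% reached this limit. DTX1 and HES5 were not analysed here. The 8 genes under 10 were a receptor, 4 ligands, a ligand ubiquitin ligase and the targets HES2 and HEY2, while every gene with a row for receptor processing, turnover and nuclear control was above it. The fourth receptor, NOTCH4, which is typical of endothelium, had a mean of 2.92. Among the Delta-like ligands DLL3 was at 0.148 and DLL4 at 1.89, and among the non-canonical ligands DLK1 was at 0.732 and DLK2 at 0.140. JAG1 and JAG2 were therefore the only canonical ligands of the 5 examined with a mean of at least 10, and NOTCH1 and NOTCH2 the only receptors of the 4.

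RNAs for the machinery that carries a receptor from synthesis to cleavage were all at 10 or more, a limit that 54.4% of all genes reached. For the ligand side, MIB1, the ubiquitin ligase that triggers ligand endocytosis, was the highest of its group at 608 per kb, and NEURL1 the lowest at 0.302. Of the enzymes that add sugars to the receptor, LFNG, a Fringe glycosyltransferase that alters which ligands a receptor answers to, stood at 1734 per kb. MFNG, another Fringe enzyme, was at 10.7, a ratio of 162, or 59.8 with the median transcript length. All 8 genes of receptor proteolysis examined passed a mean of 10. ADAM10, the metalloprotease of ligand-induced cleavage, was the highest at 2742 per kb, and 5 genes of gamma-secretase ranged from 241 for PSEN2 to 1776 for APH1A. Of the genes of receptor turnover ITCH, a ubiquitin ligase, was the highest at 1271 and DTX4, of the Deltex family, the lowest at 50.5 per kb.

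All 8 nuclear activators and all 7 nuclear corepressors examined had a mean of 10 or more, against 54.4% of all genes. MAML2 stood at 581 per kb, 1.36 times MAML1 but 0.211 times with the median transcript length, whereas MAML3 was the lowest activator at 9.33. EP300, the histone acetyltransferase recruited by Mastermind, was the highest at 1140. The corepressors had a median of 815 per kb, from 458 for KDM5A, a histone demethylase, to 2204 for HDAC1, a histone deacetylase. The activators had a median of 606 per kb. Among the 9 targets with a row, HES1 was the highest and HEY2, at 1.24 per kb, the lowest, and the median was 22.0. HES4 was at 264, HES6 at 34.5, HEYL at 17.7 and NRARP, a feedback inhibitor, at 22.0 per kb.

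**Figure D3:**
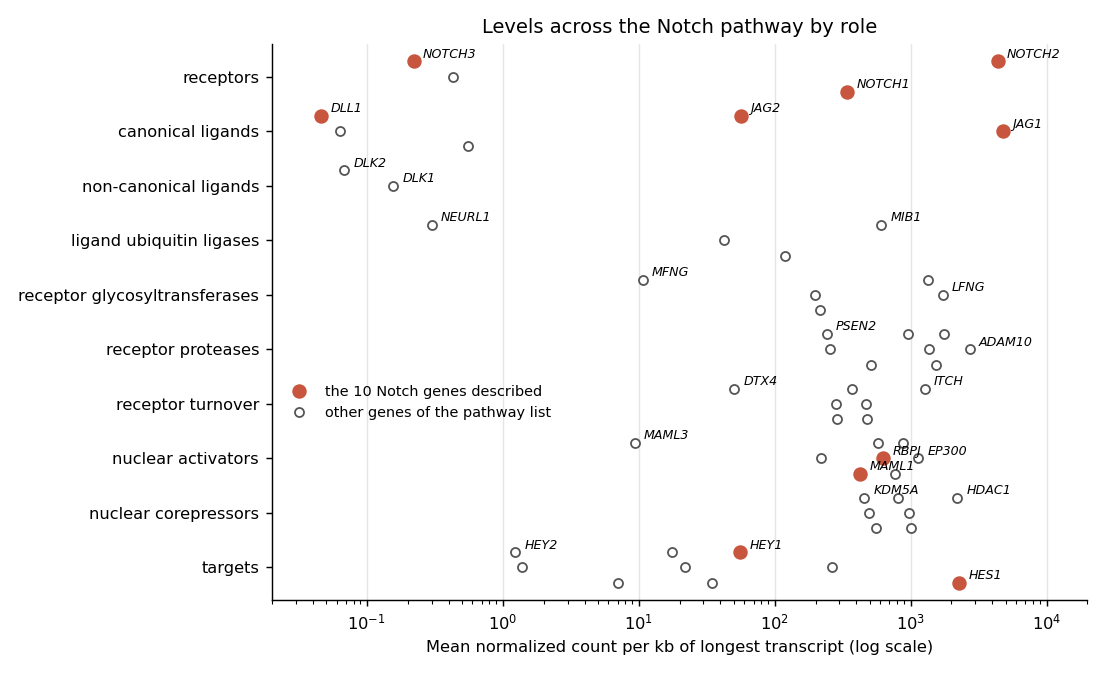
Mean normalized count per kb of longest transcript (x axis, log scale) for 59 Notch pathway genes in rows by role, with the 10 genes described in red and the other genes as open circles; the vertical offset within a row only separates points. NOTCH2 and JAG1 exceed every other gene plotted, and the genes of receptor proteolysis and corepression lie between 241 and 2742 per kb.

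The labelled cell type was checked against marker genes. All 10 markers of clear cell renal carcinoma and renal tubule passed a mean of 10, a limit that 54.4% of all genes reached. They ranged from NDUFA4L2 at 101 and CA9 at 258 to VIM at 170524. PAX8, a renal lineage factor, was at 17472 and EPAS1, which encodes the alpha subunit of HIF2, at 4265. Of 14 markers of endothelium, leukocytes, fibroblasts and mural cells, 13 had a row and 6 passed the same limit. Among endothelial markers 1 of 5 passed, PECAM1 at 13.2, and VWF (7.43), CDH5 (0.511), KDR (0.795) and DLL4 (1.89) did not. Among leukocyte markers 1 of 3 passed, the macrophage marker CD68 at 3555, while PTPRC (1.85) and CD14 (2.97) did not. Among fibroblast and mural markers 4 of 5 passed, namely RGS5 at 1113, ACTA2 at 940, COL1A1 at 209 and PDGFRB at 19.5, and DCN was at 1.48. Every library came from a culture of the labelled line and none from tissue. The paper reports that the line was authenticated by short tandem repeat profiling. The marker levels therefore describe these cultures, and a part of other cells in the Notch levels was not tested. Depth was known in relative terms only. The 6 lowest recurring values of the table, shared by 1307 genes with a lone read, correspond to size factors between 0.782 and 1.19, a range of 1.52 times, and which library each belongs to was not determined.

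Promoter sequence was examined for 8 of the 10 genes, in 12 RefSeq windows of 300 bases (GRCh38.p14). The windows run from 250 bases before an annotated start to 50 after it. RBPJ had 5 windows. No window of DLL1 or HEY1 was used, so the counts of Notch windows and genes leave these genes out. The letters TGGGAA, the core bound by RBPJ, were searched on both strands, as were ACGTG and GCGTG, the core of the hypoxia response element bound by HIF. The RBPJ and HIF letters were searched separately, and a position read on both strands was counted once. TGGGAA occurred in 2 of 12 windows, in HES1 and in 1 window of RBPJ, and in 24.0% of all 35116 windows. Each of these held 2 matches, and 3.80% of all windows held 2 or more. In HES1 they began 84 and 70 bases before the start.

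The HIF core occurred in 8 of 12 windows, against 48.4% of all windows. Counted by gene, 7 of 8 had it in at least 1 window, against 52.4% of all 27305 genes with a window. The JAG1 window held 5 matches, the most of the 12, and 1.98% of all windows held 5 or more. They began 116, 101, 85 and 40 bases before the start and in 1 case after it. The NOTCH2 window held none. A match of these letters is a description of the sequence, not a bound site. For HES1, the target with the highest polysome level, the 250 bases before the start are shown with TGGGAA in capitals (chr3:194135898-194136147, plus strand). For JAG1, the ligand with the highest polysome level, they are shown with ACGTG and GCGTG in capitals on either strand (chr20:10674000-10674249, minus strand).
HES1: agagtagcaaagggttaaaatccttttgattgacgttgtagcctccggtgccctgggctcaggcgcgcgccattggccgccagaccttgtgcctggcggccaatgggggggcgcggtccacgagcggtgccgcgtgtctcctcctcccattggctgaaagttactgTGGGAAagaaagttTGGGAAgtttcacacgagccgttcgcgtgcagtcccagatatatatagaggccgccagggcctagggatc
JAG1: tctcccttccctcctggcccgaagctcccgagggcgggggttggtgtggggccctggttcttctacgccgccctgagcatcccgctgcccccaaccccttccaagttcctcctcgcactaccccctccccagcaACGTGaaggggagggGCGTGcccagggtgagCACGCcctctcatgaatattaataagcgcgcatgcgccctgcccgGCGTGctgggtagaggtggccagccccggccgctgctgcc
Both TGGGAA matches in HES1 read in the direction of the gene. Other forms of the RBPJ site were not searched, so the arrangement of RBPJ sites was not determined. In JAG1 3 of the 4 capital stretches read in the direction of the gene and 1, CACGC, is the reverse complement of GCGTG.

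**Figure D4:**
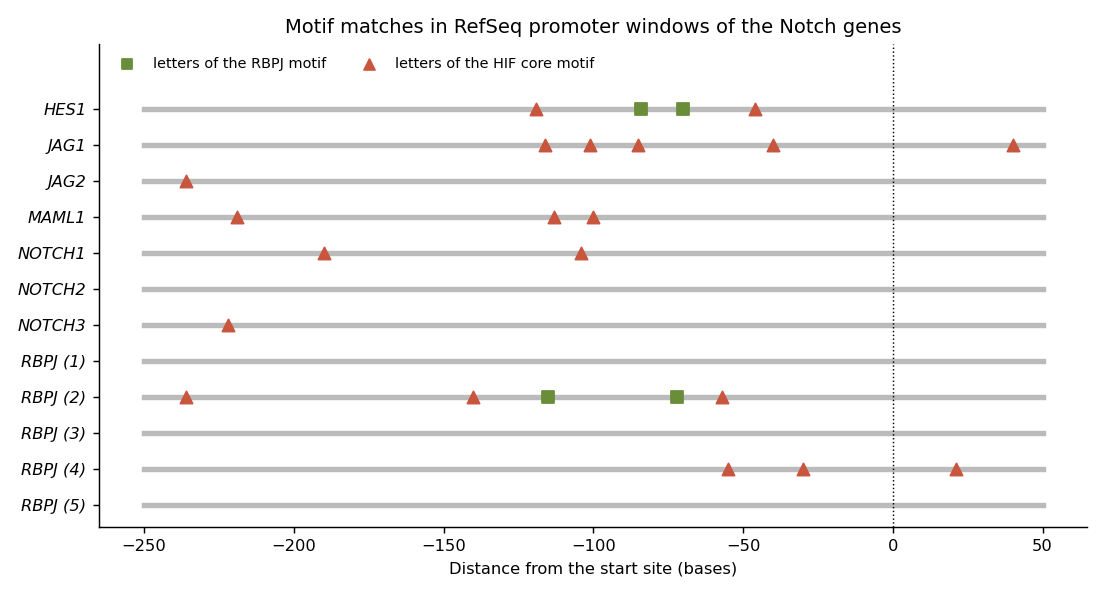
Distance from the annotated start site in bases (x axis) of each match to the RBPJ core (green squares) and to the HIF core (red triangles) in the 12 RefSeq promoter windows (grey bars) of 8 Notch genes, the windows of RBPJ numbered by position. HES1 and the second RBPJ window are the only windows with TGGGAA, the only RBPJ letters searched, and JAG1 has 5 HIF cores.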

How the data were processed

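Polysome-seq was done in 6 libraries, 3 of OSRC-2 cells given 2 µM PT2399 and 3 given vehicle for 72 h, grouped by sample label. The label of the PT2399 libraries gives the dose in mM; the protocol and the paper's methods, followed here, give µM. Per the labels, the authors used bcl2fastq 2.18 and aligned to hg38 with STAR 2.7.3a, then ran Salmon and DESeq2 1.22.1; the version of Salmon is not given in the sources read. The deposited table gives, per gene, the mean over all libraries of counts divided by DESeq2 size factors, a signal made by the authors. Its other columns hold the authors' comparison of PT2399 with vehicle (log2 fold change, its standard error, test statistic, p-value and adjusted p-value). They were not used and are not reported here, so no test was made. The table has 0 further columns of single libraries.

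Exact Poisson intervals of 95% were computed from the mean times 6, divided by 6 again. The longest, median, coding and canonical lengths of transcripts came from GENCODE release 44, whose copy here is lifted to GRCh37, so only lengths were taken from it. Lengths were found for 69.7% of rows and for all 10 genes. Gene positions are RefSeq on GRCh38.p14, matched by Entrez ID. Ensembl identifiers are those deposited with each gene and were not checked against these positions. The count minimum was 10. A total of 2 genes of the pathway list are not reported here. The interval and the motif search were tested on simulated data. The genes named are the 10 genes, the highest and lowest gene per kb of each role, rows that share sequence with them, and cell type markers; APH1A, HES2, HES4, HES6, HEYL, NRARP, MAML2, NOTCH4, DLL3, DLL4 and FAM120B were added after their values were seen. The genes and lists were chosen with earlier results of these data known. Analyses ran in Python 3.11.15 with scipy 1.17.1, pandas 2.3.3 and numpy 2.4.6, and figures in matplotlib 3.10.9.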

Additional observations from a re-analysis of the deposited data

How the results depend on the processing

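The number of Notch genes at or above the minimum was 8 at a mean of 5, 10 or 100, and that of the pathway list was 50, 49 and 43. The median percentile of the 10 genes, 87.6 among all rows, was 77.3 among rows with a mean of at least 10, 77.8 among protein-coding genes and 72.0 on levels per kb. The last is void as a rank among all genes, because 69.7% of rows had a length. The ratio of summed receptors to summed ligands per kb, 0.968, was 0.907 with coding length, 0.968 with all receptors and canonical ligands, 0.970 with the canonical transcript and 2.23, turned in direction, with the median transcript, the last 2 chosen after seeing the data. NOTCH2 moved by the addition of the NOTCH2NL row, to 56469. Levels per kb were 1.25 to 4.20 times the main value with coding length, 1.22 to 19.3 times with the median transcript and 1.00 to 1.77 times with the canonical one, the largest ratio being that of NOTCH2 under the median length, where short transcripts weigh most. Of the 10 genes, 8, 6 and 8 kept their rank under these lengths. Leaving out a library could not be tried on a mean over all libraries. No paired analysis was possible because values of single libraries were not used. Among the 10 genes depth limited NOTCH3 and DLL1 most, with 11.6 and 1.05 normalized reads over all libraries.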
